A study of Mus musculus with 23 samples.

Results

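Oxidative phosphorylation is the last stage of respiration, in which 5 protein complexes of the inner mitochondrial membrane pass electrons from NADH and succinate to oxygen and use the resulting proton gradient to make ATP. The genes described here are its subunit genes: all rows of the count table whose identifier belongs to a protein-coding mouse gene with a symbol starting in Nduf followed by a, b, c, s or v (complex I), Sdha to Sdhd (complex II), Uqcr or mt-Cytb (complex III), Cox4 to Cox8 or mt-Co (complex IV), Atp5 or mt-Atp (complex V), or mt-Nd (complex I). The rule found 107 of the 55487 identifiers, of which 94 are nuclear genes and 13 lie on the mitochondrial genome. It also takes in 8 complex I assembly factors, named Ndufaf, and Atp5s, a coupling factor, which are not subunits, and 13 further symbols fitted the pattern but were not protein-coding and were left out.

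The libraries came from primary mouse embryonic fibroblasts (MEFs), prepared on an FVB/NJ background from embryos at day 13.5 without head and organs, and carried 4 genotypes of the glucocorticoid receptor (GR). GRwt/wt is the normal receptor. In GRD/D, threonine replaces an alanine on the dimerisation surface of the DNA-binding domain. In GRL/L, alanine replaces an isoleucine of the ligand-binding domain, and GRD+L/D+L has both replacements on each allele. GRL/L and GRD+L/D+L are together called the L mutants below. All alleles are constitutive, the L and D+L alleles were made by CRISPR/Cas9, and mice homozygous for either die around birth. Each culture was given solvent (vehicle) or 10 nM dexamethasone (Dex), a synthetic glucocorticoid, for 5 h. Each genotype had 3 cultures from different mice, which gave 3 libraries per group and 2 for GRD/D vehicle, 23 in all. Since each genotype stands for 3 embryos, p-values cover the spread between libraries within a group, estimated over all 8 groups together. Vehicle and Dex libraries of the same culture were treated as independent in that estimate.

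Complexes I, III, IV and V are built from proteins of both genomes, whereas complex II is wholly nuclear. The nuclear subunit genes are transcribed by RNA polymerase II, many from promoters with sites for NRF1, GABP (an ETS family factor) and YY1, and their proteins are imported. Both strands of the mitochondrial genome are transcribed by a separate polymerase as long precursors that are then processed into the individual mRNAs. In fibroblasts, glycolysis also supplies ATP, and the level of these mRNAs does not by itself give the rate of respiration.

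Totals ran from 16452539 to 23117080 counts per library. Levels are given as CPM, the count relative to the library total as scaled by the TMM factors. All 12 fibroblast markers were at 1 CPM or more in every group, and their summed level ran from 41342 to 66174 CPM. The libraries of GRwt/wt vehicle, the reference of the vehicle comparisons, stood apart from each other. In GRwt/wt vehicle 1 the deviation of each gene from its mean over all libraries correlated with GC content across all genes (Spearman rho = 0.68, a description), and the 12 skeletal muscle markers summed to 269 CPM, with GRwt/wt Dex 1 at 176 CPM and all other libraries between 13.9 and 50.7 CPM. In GRwt/wt vehicle 3 the 12 macrophage markers summed to 5205 CPM, against 18.8 and 43.4 CPM in the other two and 8.16 to 1828 CPM elsewhere. The counts and medians over the subunit genes are therefore also given without them, and a named gene where its call ended.

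Of the 107 genes, 96 passed the filter on low counts and were tested, 89 nuclear and 7 mitochondrial. The nuclear tested genes comprise 35 of 36 for complex I, 4 of 4 for complex II, 8 of 8 for complex III, 17 of 20 for complex IV, 16 of 17 for complex V, the 8 assembly factors and Atp5s. The 5 nuclear genes that were not tested are Ndufs5, a complex I subunit with 0 to 9 counts per library, the testis or muscle isoforms Cox7b2, Cox8b and Cox8c, none with more than 1 count in any library, and an additional Atp5o entry with no count in any library. Ndufs5 shares 31.1% of its 50-base words with an annotated processed pseudogene, and the additional Atp5o entry shares 89.8% with other annotated transcripts. The 6 mitochondrial genes that were not tested are mt-Nd3, mt-Nd4l, mt-Co2, mt-Co3, mt-Atp6 and mt-Atp8.

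Those 6 genes lie side by side on the mitochondrial genome, and together had 4 counts over all 23 libraries. mt-Co2, which carries a copper centre of complex IV, had 2 counts in total, mt-Co3 and mt-Nd3 had 1 each, and mt-Nd4l, mt-Atp6 and mt-Atp8 had 0. A count of 0 covers counting error only and does not measure expression here, since only uniquely mapped reads were counted and 5 of the 6 genes are repeated almost without change in a stretch of chromosome 1 near 24.61 Mb, on the minus strand. The annotated copies are Gm28661 for mt-Co2 (681 of 681 bases identical), Gm10925 for mt-Atp6 (678 of 678), Gm28437 for mt-Co3 (783 of 783), Gm28438 for mt-Nd3 (344 of 345) and Gm10222 for mt-Nd4l (294 of 294). Of all 50-base words in the annotated transcripts, 98.0% to 100% of the words in these 5 genes also occurred in another annotated gene. mt-Atp8 shared 0% by the same measure, but lies between mt-Co2 and mt-Atp6, in a stretch for which chromosome 1 has no annotated transcript.

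The copy of mt-Nd3, an integral membrane subunit of complex I, differs from it at 1 position, T3C, counted from 1 at the first base of the gene. The sequences below show the first 30 bases of mt-Nd3 at chrM:9459-9488 (plus strand) and of Gm28438 at chr1:24613090-24613119 (minus strand), GRCm38, with the differing base as the capital letter.
mt-Nd3: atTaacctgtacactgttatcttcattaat
Gm28438: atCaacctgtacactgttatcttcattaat
Gm28438 was given 797 counts in total, 16 to 57 per library, against 1 for mt-Nd3. The other 4 of these copies had between 28 and 45 counts in total.

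mt-Nd4 is the case in between, since the first 876 of its 1378 bases are identical in Gm28439 and the rest are not. The 60 bases of mt-Nd4 at chrM:11013-11072 (plus strand, GRCm38, positions 847 to 906 of the gene) run across the end of the copy, with the bases that the copy also holds in capitals.
mt-Nd4: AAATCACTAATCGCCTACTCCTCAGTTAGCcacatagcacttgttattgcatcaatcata
mt-Nd4 had 875145 counts over the 23 libraries and Gm28439 had 19. Its level was 1461 CPM per kb of exon, and 4010 CPM per kb when the length is taken as the number of 50-base words that are not shared. A gene has fewer words than bases, so mt-Nd1, which shares 0%, also went from 3957 to 4170. mt-Co1, the catalytic subunit of complex IV, shares 51.1% of its words and went from 5494 to 11612 CPM per kb by the same step. The read length is not given in the sources used here, and words of another length would be shared to another degree. These are therefore not corrected levels, and levels compared between mitochondrial genes depend on this choice of length.

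With the unshared length, the order was mt-Co1 at 11612, mt-Cytb (the core of complex III) at 4595, mt-Nd1 at 4170, mt-Nd4 at 4010, mt-Nd2 at 2489, mt-Nd5 at 2170 and mt-Nd6 at 22.2 CPM per kb, as means over the 23 libraries. mt-Nd6 is the only protein gene of the light strand, and its 3′ end overlaps that of mt-Nd5. Its counts ran from 102 to 295 per library, and strand-specific counting is not given in the sources used here.

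**Figure D1:**
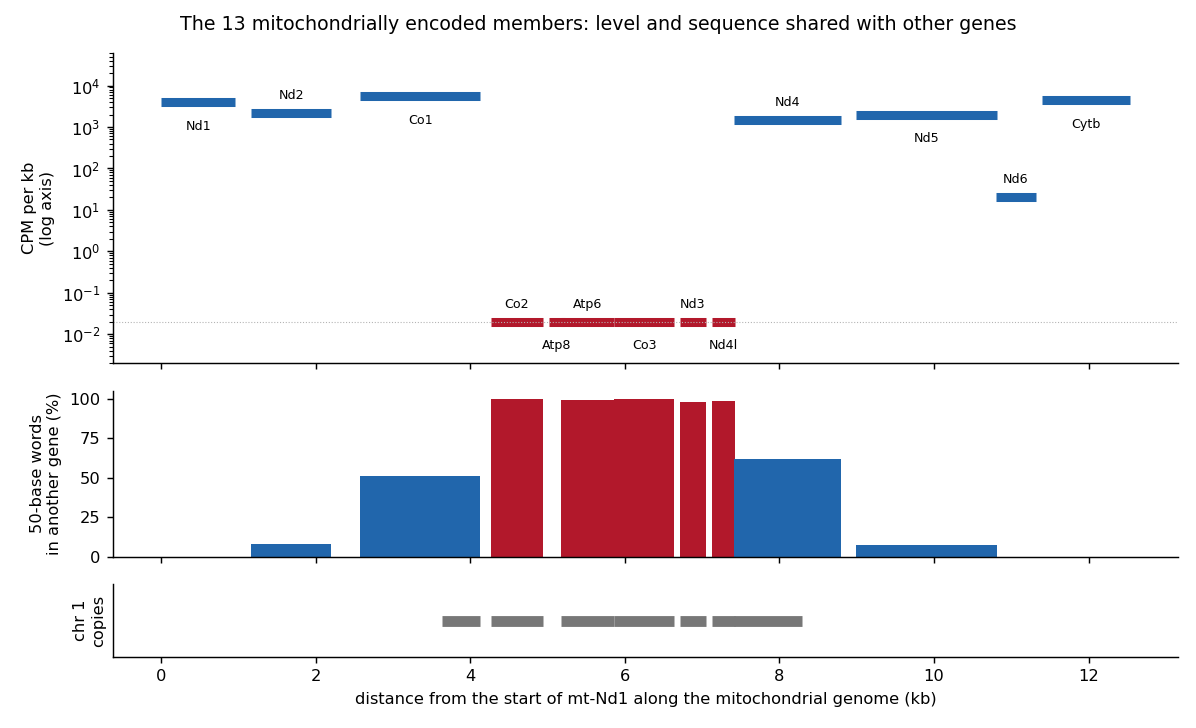
The 13 mitochondrially encoded genes by distance from the start of mt-Nd1 (kb): the top panel gives the mean level over the 23 libraries in CPM per kb of exon on a log axis, the middle panel the percent of 50-base words that also occur in another annotated gene, and the bottom panel the stretches with an annotated copy on chromosome 1. Blue genes were tested and red genes were not. The red genes are drawn at the dotted line whatever their level, which is at or below it. Apart from mt-Atp8, which has no bar in the middle panel, each red gene shares at least 98.0% of its words.

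The nuclear genes were all below the 6 tested heavy-strand genes of the mitochondrial genome. The 89 tested had a median of 36.1 CPM per kb (0.34 to 212), and 78 were above 10 CPM. The highest of each complex per length were Ndufa2 (100 CPM per kb, an accessory subunit of complex I), Sdhd (81.1, a membrane anchor of complex II), Uqcr10 (99.3, a small subunit of complex III), Cox6a1 (212, the ubiquitous form of a regulatory subunit of complex IV) and Atp5a1 (194, the alpha subunit of the F1 head of ATP synthase). Of the 94 nuclear genes, 46 shared no 50-base word with another annotated gene and 2 shared 50% or more. The exons of 33 overlap an exon of another annotated gene, and reads there cannot be assigned without strand.

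Together the nuclear genes took less than 1.3% of the counts of a library and the 13 mitochondrial genes between 1.10% and 3.59%. In GRwt/wt vehicle the nuclear share was 1.26%, 0.961% and 0.757% in replicates 1, 2 and 3. It was 0.595% ± 0.0147 in GRL/L vehicle and 0.653% ± 0.0417 in GRD+L/D+L vehicle (SD, n = 3 each). All 6 mutant libraries were below all 3 GRwt/wt libraries. GRD/D vehicle, at 0.717% and 0.776%, overlapped GRwt/wt vehicle. Under Dex the nuclear share was 0.924%, 0.730% and 0.760% in GRwt/wt, 0.784% ± 0.0197 in GRD/D, 0.604% ± 0.0118 in GRL/L as well as 0.648% ± 0.0264 in GRD+L/D+L (SD, n = 3 each), again with no L mutant library as high as a GRwt/wt library. In these bulk samples, fewer cells of a type and less RNA per cell cannot be told apart.

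The mitochondrial share did not follow the nuclear one. It was 1.10%, 3.48% and 2.41% in the 3 GRwt/wt vehicle libraries, and the mutants lay inside that range at 2.58% ± 0.131 (GRD/D, n = 2), 2.47% ± 0.0726 (GRL/L, n = 3) and 2.39% ± 0.169 (GRD+L/D+L, n = 3). Under Dex it was 1.99%, 2.42% and 3.59% in GRwt/wt and 2.68% ± 0.161, 2.44% ± 0.117 and 2.52% ± 0.301 in the same order of mutants (SD, n = 3 each). GRwt/wt vehicle 1 had the highest nuclear and the lowest mitochondrial share of all libraries. The ratio of mitochondrial to nuclear counts ran from 0.871 to 3.62 in GRwt/wt vehicle, 4.08 to 4.29 in GRL/L vehicle and 3.15 to 4.04 in GRD+L/D+L vehicle.

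**Figure D2:**
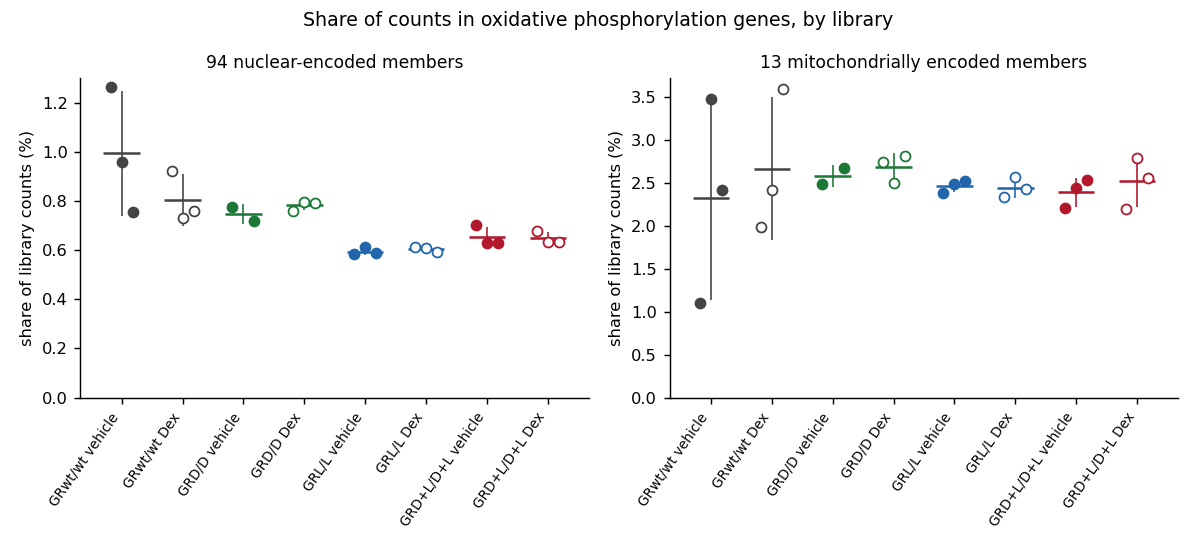
Share of the counts of each library (percent) in the 94 nuclear genes (left) and the 13 mitochondrial genes (right), by group, with 1 point per library (filled, vehicle; open, Dex), the mean as a bar and the SD as a line. In the nuclear panel the L mutant libraries lie below every GRwt/wt library, and in the mitochondrial panel they lie within the spread of GRwt/wt vehicle, 1.10% to 3.48%.

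The comparison of each mutant with GRwt/wt in vehicle asks whether the subunit genes differ without added ligand. Nuclear subunit genes of all 5 complexes were lower in the L mutants, most by less than a factor of 2, while the mitochondrially encoded genes were not called in this fit. In GRL/L, 73 of the 89 nuclear genes were lower and 1, Atp5l, was higher by the edgeR quasi-likelihood test (adjusted p up to 0.05 after Benjamini-Hochberg over 15748 genes), against 14.2% of all genes lower and 8.83% higher. Their median log2 fold change was -0.77, against -0.05 over all genes tested. In GRD+L/D+L, 68 were lower and 0 higher by the same test, against 13.3% and 7.14% of all genes, with a median of -0.65 and again -0.05 over all genes. In GRD/D, 0 were called by edgeR, against 0.0127% of all genes. The GRD/D median was nonetheless -0.41 (all genes, -0.06), 54 nuclear genes had an unadjusted p under 0.05 (all genes, 12.4%), the smallest adjusted p was 0.329, and DESeq2 also called 0. That median was -0.20 without GRwt/wt vehicle 1 and -0.22 with a correction for GC content and length. It was -0.53 without GRwt/wt vehicle 3, where edgeR called 45 subunit genes lower in GRD/D, where 3.68% of all genes were lower. The difference between GRD/D and the other mutants was not tested.

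Genes of each complex were among those that fell. In GRL/L it included 31 of 35 tested nuclear genes of complex I, 4 of 4 of complex II, 7 of 8 of complex III, 13 of 17 of complex IV and 14 of 16 of complex V, but 4 of 8 assembly factors. The numbers for GRD+L/D+L were 30, 3, 7, 13, 13 and 2. With a smooth correction of each library for GC content and length they were 20, 2, 6, 10, 9 and 4 in GRL/L, and 12, 1, 3, 6, 3 and 1 in the GRD+L/D+L comparison. In those fits 12.8% and 10% of all genes were lower. In GRD+L/D+L, 1 of 8 assembly factors is near that share, and 3 of 16 complex V genes is little above it. Without the correction, a factor of 2 or more was reached by 11 of the lower genes in GRL/L, against 2.84% of all genes. In GRD+L/D+L it was reached by 4 (Uqcrq, Cox6a1, Cox7a1 and Ndufa4l2), against 4.71%. Counted without a test, 75 of the 89 nuclear genes in GRL/L as well as 64 in GRD+L/D+L had every vehicle library below every GRwt/wt vehicle library, against 18.4% and 13.9% of all genes. These comparisons share the 3 GRwt/wt vehicle libraries, so their lists are not independent of each other.

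**Figure D3:**
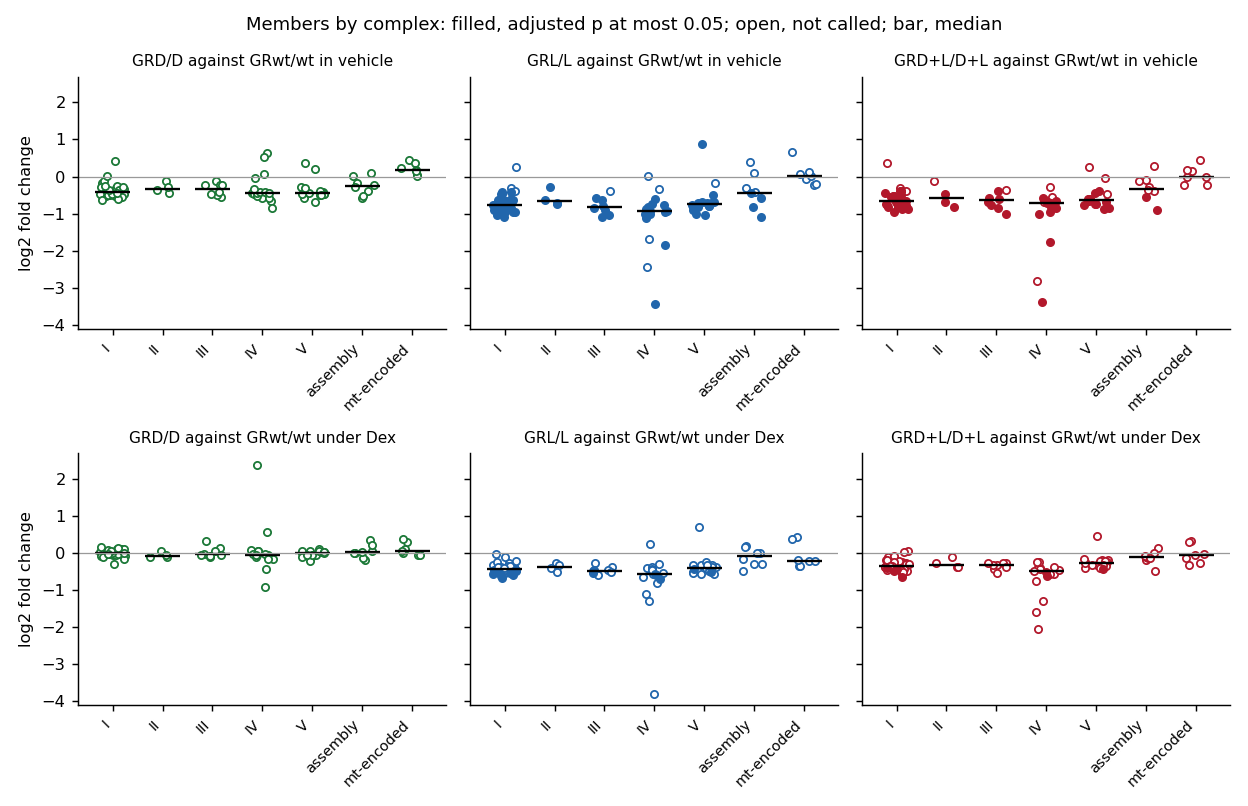
Log2 fold change of each tested gene against GRwt/wt in vehicle (top) and under Dex (bottom) for the 3 mutants, by complex, with Atp5s left out. Points are genes, filled where the edgeR adjusted p is at most 0.05, and bars are medians. In vehicle the nuclear genes of complexes I to V lie mostly below 0 in the L mutants with 73 and 68 lower, whereas none of the 7 mitochondrial genes is filled in any panel.

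Many of these calls did not hold under a smooth correction of each library for GC content and length. Corrected values are given below for most of the genes named. Complex I takes electrons from NADH. Ndufs8, which carries iron-sulfur clusters of its peripheral arm, was at 100, 62.8 and 52.7 CPM in GRwt/wt vehicle, with GRL/L vehicle lower at 33.2, 37.8 and 30.5 CPM. It fell by 1.09 ± 0.20 (SE) on the log2 scale (edgeR adjusted p = 0.00118), and for GRD+L/D+L (42.7, 41.4 and 37.4 CPM) by 0.83 ± 0.19 (edgeR adjusted p = 0.00773). The groups did not overlap, and GRwt/wt vehicle 1 was the highest library. Ndufs6, a zinc-binding accessory subunit of the same arm, was at 63.3, 53.2 and 39.2 CPM in the GRwt/wt vehicle libraries, 26.7, 30.03 and 23.8 CPM in GRL/L and 24.1, 27.9 and 27.4 CPM in GRD+L/D+L. Its log2 fold changes were -0.95 ± 0.15 and -0.97 ± 0.15 (edgeR adjusted p = 0.000657 and 0.000914), and it was the largest called change of complex I in GRD+L/D+L. The Ndufs6 exons overlap those of Mrpl36 on the other strand. With the correction Ndufs6 was called in both, at -0.52 and -0.50 (edgeR adjusted p = 0.00846 and 0.0132). Ndufs8 was then called in GRL/L, at -0.43 (edgeR adjusted p = 0.0188), but not in GRD+L/D+L, at -0.14 (edgeR adjusted p = 0.435).

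Ndufa11, a membrane-arm subunit, and Ndufaf3, an assembly factor, also fell by a factor of 2 or more in GRL/L, with log2 fold changes of -1.04 ± 0.21 and -1.09 ± 0.18 (edgeR adjusted p = 0.00207 and 0.000644). With the correction they were at -0.37 and -0.50 (edgeR adjusted p = 0.029 and 0.00885), under a factor of 2. Ndufs1, the largest subunit of complex I and the gene with the most exonic sequence of the 89, was not called, with 0.26 ± 0.31 in GRL/L as well as 0.37 ± 0.31 in GRD+L/D+L (edgeR adjusted p = 0.564 and 0.4). It had 383 counts in GRwt/wt vehicle 1, against 1740 and 1958 in the other two, and with the correction it was at -0.26 and -0.0075 (edgeR adjusted p = 0.133 and 0.973).

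Complex II oxidises succinate and also belongs to the citric acid cycle. Sdhb, its iron-sulfur subunit, was at 172, 128 and 98.8 CPM in the GRwt/wt vehicle libraries, 84.7, 79.6 and 79.9 CPM in GRL/L and 78.8, 68.0 and 77.8 CPM in GRD+L/D+L. Every mutant library was below every GRwt/wt library, with log2 fold changes of -0.71 ± 0.15 and -0.83 ± 0.15 (edgeR adjusted p = 0.00328 and 0.0019). Sdhc, an anchor in the membrane, changed by -0.74 ± 0.15 in GRL/L as well as -0.68 ± 0.15 in GRD+L/D+L (edgeR adjusted p = 0.00288 and 0.00616), and Sdhd by -0.64 ± 0.10 and -0.48 ± 0.10 (edgeR adjusted p = 0.000617 and 0.00415). Sdha, the flavoprotein, moved least, at -0.29 ± 0.09 in GRL/L (edgeR adjusted p = 0.0369), as against -0.12 ± 0.09 in GRD+L/D+L, where it was not called (edgeR adjusted p = 0.351). With the correction Sdhb and Sdhd were called in neither mutant. Sdhb was then at -0.19 and -0.25 (edgeR adjusted p = 0.124 and 0.0502), and Sdhd at -0.19 in GRL/L (edgeR adjusted p = 0.0896) and on the other side of 0, at 0.02, in GRD+L/D+L (edgeR adjusted p = 0.908). Sdhc kept both calls, at -0.65 and -0.51 (edgeR adjusted p = 0.00828 and 0.0308).

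Complex III passes electrons from ubiquinol to cytochrome c. Uqcrq, a small subunit beside cytochrome b, was at 131, 108 and 84.3 CPM in the GRwt/wt vehicle libraries, 55.1, 51.2 and 49.8 CPM in GRL/L and 47.4, 53.4 and 58.4 CPM in GRD+L/D+L. It reached a factor of 2 in both, with log2 fold changes of -1.05 ± 0.16 and -1.02 ± 0.16 (edgeR adjusted p = 0.00038 and 0.000714). Uqcr11, another small subunit, was at 102, 60.8 and 46.0 CPM in GRwt/wt vehicle, whereas GRL/L had 35.4, 31.3 and 31.3 CPM, with -1.09 ± 0.22 (edgeR adjusted p = 0.0021). In GRD+L/D+L it was at 38.7, 44.6 and 38.7 CPM, with -0.77 ± 0.21 (edgeR adjusted p = 0.0188). Uqcrfs1, the Rieske iron-sulfur protein, fell by 0.91 ± 0.16 in GRL/L and by 0.67 ± 0.16 in GRD+L/D+L (edgeR adjusted p = 0.00103 and 0.00777). With the correction Uqcr11 and Uqcrfs1 were called in GRL/L, at -0.45 and -0.55 (edgeR adjusted p = 0.0118 and 0.0192), but not in GRD+L/D+L, at -0.20 and -0.25 (edgeR adjusted p = 0.212 and 0.257).

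Complex IV reduces oxygen and is the complex whose nuclear subunits have tissue forms. Cox7a2, the form found in most tissues, was at 117, 112 and 79.1 CPM in the GRwt/wt vehicle libraries, 47.0, 53.1 and 53.7 CPM in GRL/L vehicle and 58.3, 55.3 and 60.4 CPM in GRD+L/D+L vehicle. Its log2 fold changes were -1.0 ± 0.13 (edgeR adjusted p = 0.000176, the smallest of all 96 genes in this comparison) and -0.83 ± 0.13 (edgeR adjusted p = 0.000916). Cox6a1 was at 310, 233 and 157 CPM in the GRwt/wt vehicle libraries, 106, 108 and 107 CPM in GRL/L and 96.7, 132 and 120 CPM in GRD+L/D+L. It changed by -1.12 ± 0.20 and -1.0 ± 0.20 (edgeR adjusted p = 0.00118 and 0.00302). For both genes the 3 GRwt/wt vehicle libraries lay further from each other than the 3 GRL/L libraries did.

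The muscle form Cox7a1 was low, at 1.77, 1.61 and 1.90 CPM in the GRwt/wt vehicle libraries, 0.389, 0.807 and 0.259 CPM in GRL/L and 0.259, 0.457 and 0.824 CPM in GRD+L/D+L. It was called in both, at -1.85 ± 0.49 and -1.78 ± 0.49 (edgeR adjusted p = 0.0124 and 0.0186). The muscle form Cox6a2 and the lung form Cox4i2 did not exceed 0.983 and 1.31 CPM in any library and were not called in any comparison, nor was the testis form Cox6b2, at 6.25 to 32.5 CPM. Cox4i1, Cox6b1, Cox7a2l and Cox8a, which are found in most tissues, were lower in both mutants, at -0.94 ± 0.17, -1.0 ± 0.17, -0.73 ± 0.17 and -0.93 ± 0.19 in GRL/L (edgeR adjusted p = 0.00124, 0.000924, 0.00508 and 0.00238). With the correction none of these 4 was called in GRD+L/D+L (edgeR adjusted p = 0.0774, 0.0968, 0.876 and 0.376). In GRL/L Cox7a2l and Cox8a lost their calls, at -0.26 and -0.31 (edgeR adjusted p = 0.173 and 0.0787), and Cox7a1 lost both, at -1.29 and -1.25 (edgeR adjusted p = 0.0684 and 0.076). Before the correction, 9 of the 13 tested genes in pairs of tissue forms were lower in GRL/L as well as 9 in GRD+L/D+L, against 14.2% and 13.3% of all genes.

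Ndufa4l2, a paralog of the complex IV subunit Ndufa4 that is known to be induced by hypoxia, had the largest log2 fold change of all 89 nuclear genes in the L mutants in vehicle. It was at 1.05, 2.31 and 10.7 CPM in the GRwt/wt vehicle libraries, 0.444, 0.323 and 0.517 CPM in GRL/L and 0.155, 0.320 and 0.883 CPM in GRD+L/D+L. The changes were -3.44 ± 0.78 and -3.38 ± 0.77 (edgeR adjusted p = 0.0047 and 0.00685), and without GRwt/wt vehicle 3, the library with 10.7 CPM and the high macrophage markers, -1.92 and -1.86 (edgeR adjusted p = 0.0293 and 0.04). In GRD/D it was at 9.31 and 4.24 CPM in vehicle and 9.66, 2.66 and 3.80 CPM under Dex, above the 0.758, 1.03 and 1.31 CPM of GRwt/wt Dex, with 2.37 ± 0.72 that was not called (edgeR adjusted p = 0.187). Its exons overlap Shmt2 on the other strand. Ndufa4 itself, at 76.2 to 184 CPM, changed by -0.88 ± 0.18 in GRL/L as well as -0.71 ± 0.18 in GRD+L/D+L (edgeR adjusted p = 0.0026 and 0.0124). With the correction Ndufa4 moved further from 0, to -1.83 and -1.55 (edgeR adjusted p = 0.0152 and 0.0357).

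Complex V is ATP synthase. Atp5g1, which encodes the c subunit of its rotating ring, was at 117, 79.3 and 58.3 CPM in the GRwt/wt vehicle libraries, 41.8, 44.2 and 38.5 CPM in GRL/L and 45.1, 48.5 and 48.2 CPM in GRD+L/D+L, with -1.03 ± 0.18 and -0.84 ± 0.18 (edgeR adjusted p = 0.000925 and 0.00398). Atp5k, the e subunit that helps ATP synthase form dimers, changed by -0.79 ± 0.15 and -0.88 ± 0.15 (edgeR adjusted p = 0.00174 and 0.00138), the latter the largest called change of complex V in GRD+L/D+L. Atp5a1 was the highest nuclear gene of the complex per length, with 1057, 701 and 632 CPM in GRwt/wt vehicle, whereas GRL/L had 489, 509 and 493 CPM. It changed by -0.68 ± 0.15 in GRL/L as well as -0.45 ± 0.15 in GRD+L/D+L (edgeR adjusted p = 0.00374 and 0.0394). With the correction Atp5a1 was at -0.30 in GRL/L (edgeR adjusted p = 0.0213) and -0.0147 in the GRD+L/D+L comparison, where it was not called (edgeR adjusted p = 0.921). Atp5k was then called in neither, at -0.17 and -0.28 (edgeR adjusted p = 0.284 and 0.0805), whereas Atp5g1 moved further from 0, to -1.48 and -1.19 (edgeR adjusted p = 0.0033 and 0.0124). Atp5l, the g subunit, was called in the other direction in GRL/L, at 0.88 ± 0.31 (edgeR adjusted p = 0.0472), with 1.27, 2.36 and 3.40 CPM in GRwt/wt vehicle, whereas GRL/L had 4.11, 4.47 and 4.45 CPM. These are 23 to 101 counts per library, and words of its transcripts occur in 640 other annotated genes, so its value is uncertain. With the correction for GC content and length Atp5l lost its call and its direction, at -0.13 (edgeR adjusted p = 0.818).

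None of the 7 mitochondrial genes was called by edgeR in GRL/L or GRD+L/D+L vehicle, and 0 had an unadjusted p under 0.05. Their median log2 fold changes were 0.03 and -0.01. mt-Cytb was at 2020, 7303 and 4910 CPM in GRwt/wt vehicle and between 4116 and 4952 CPM in the 6 L mutant vehicle libraries. mt-Nd5 was at 966, 3884 and 3101 CPM in GRwt/wt vehicle, whereas GRL/L vehicle had 4123, 4251 and 4233 CPM, the only 1 of the 7 with no overlap between these groups, and its change of 0.67 ± 0.37 was not called (edgeR adjusted p = 0.202). Without GRwt/wt vehicle 1 the median turned to -0.30 in GRL/L as well as -0.23 in GRD+L/D+L. With a smooth correction of each library for GC content and length, mt-Nd1 and mt-Nd4 were called lower in GRL/L vehicle, at -0.97 and -0.98 (edgeR adjusted p = 0.0469 and 0.0428). The mitochondrial medians were then -0.66 in GRL/L and -0.49 in the GRD+L/D+L comparison, where 0 of the 7 were called by edgeR (adjusted p = 0.073 for mt-Nd1 and 0.0761 for mt-Nd4). With that correction and without GRwt/wt vehicle 1 they were -0.01 and 0.17. The mitochondrial medians thus depend on the correction and on which GRwt/wt vehicle libraries are in the fit. That the mitochondrial genes differ from the nuclear ones in their response was not tested.

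**Figure D4:**
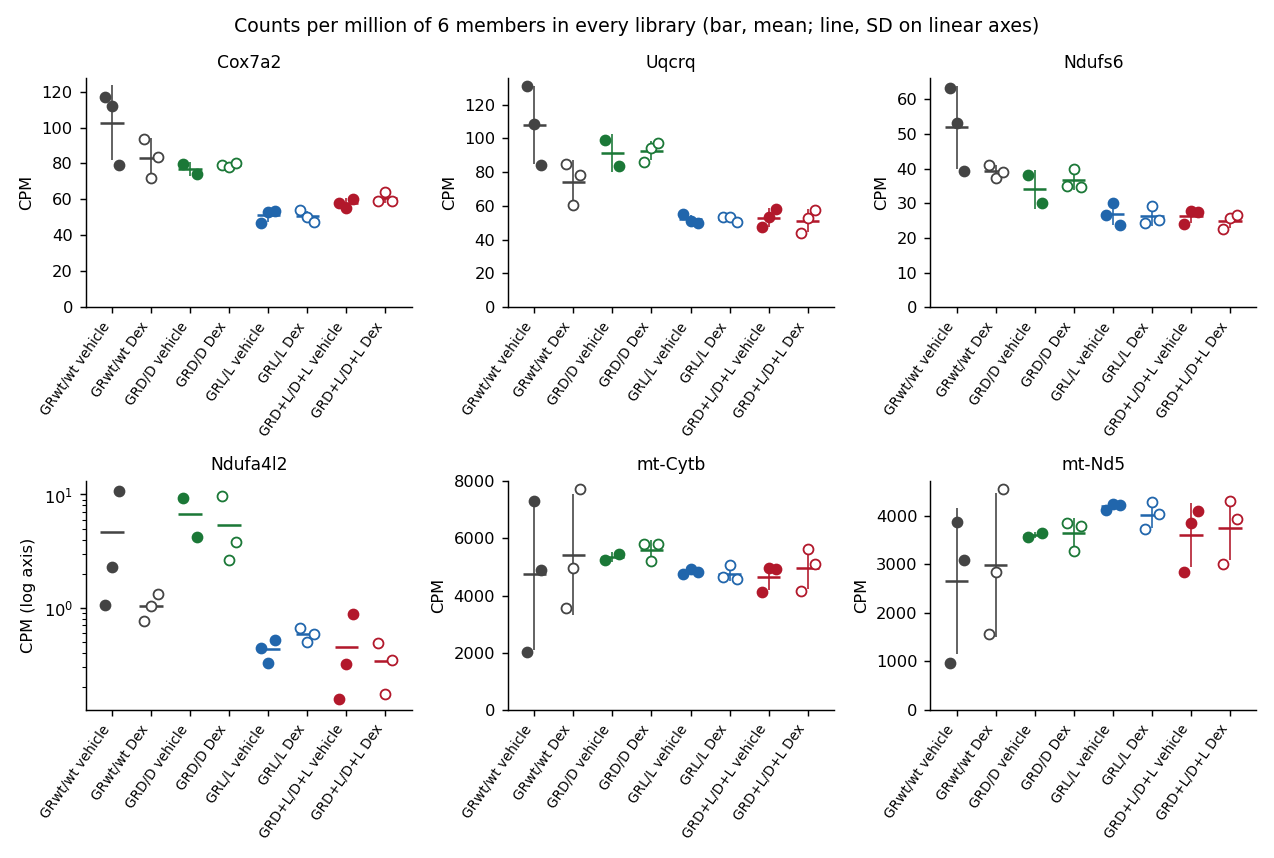
CPM of Cox7a2, Uqcrq, Ndufs6, Ndufa4l2 (log axis), mt-Cytb and mt-Nd5 in each of the 23 libraries by group, with filled points for vehicle, open points for Dex, the mean as a bar and the SD as a line on the linear axes. Cox7a2, Uqcrq and Ndufs6 are lower in every L mutant vehicle library than in every GRwt/wt vehicle library, whereas mt-Cytb ranges from 2020 to 7303 CPM within GRwt/wt vehicle alone.

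The vehicle calls rest on the shared estimate of spread over all 8 groups. In a fit of only the 6 libraries compared, edgeR called 0 of all genes and 0 of the subunit genes in either mutant, although 66 and 43 of the subunit genes had an unadjusted p under 0.05 (all genes, 19.3% and 11.8%), with nuclear medians of -0.77 and -0.62. Without GRwt/wt vehicle 1 the edgeR counts were 71 and 57 lower subunit genes, where 12.5% and 12.3% of all genes were lower, and the nuclear medians were -0.57 and -0.42. When GRwt/wt vehicle 3 was left out the counts were 77 and 72, where 18.5% and 15.1% of all genes were lower, with medians of -0.86 and -0.76. Without both the counts were 74 and 65, where 12.9% and 10.6% were, with medians of -0.77 and -0.63. Of the 23 genes named by rule in each comparison, all kept their call in GRL/L without GRwt/wt vehicle 1 and likewise without GRwt/wt vehicle 3. In GRD+L/D+L, Uqcr11, Atp5a1, Cox7a2l, Cox8a and Ndufa11 lost theirs without GRwt/wt vehicle 1, at -0.37, -0.18, -0.28, -0.44 and -0.42 (edgeR adjusted p = 0.0905, 0.18, 0.0931, 0.0535 and 0.0531), and none did without GRwt/wt vehicle 3. Without both, Cox7a1 lost its call in GRL/L, at -1.74 (edgeR adjusted p = 0.0629), and Atp5a1, Cox7a1 and Cox7a2l lost theirs in GRD+L/D+L, at -0.28, -1.67 and -0.41 (edgeR adjusted p = 0.116, 0.0848 and 0.062).

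Under Dex the mutants are compared with other GRwt/wt libraries, by the design of the study from the same 3 mice. GRwt/wt replicates 2 and 3 did not pair with the vehicle libraries of the same number by correlation (-0.02 and -0.08). The spread is still shared over all 8 groups. When only the 6 libraries compared were fitted, edgeR called 31 subunit genes lower in GRL/L, where 5.84% of all genes were lower, and 0 in GRD+L/D+L, where 0.0429% were and 47 subunit genes had an unadjusted p under 0.05 (all genes, 22.6%). In the fit of all 8 groups, 15 nuclear genes of GRL/L were lower and 0 higher (edgeR), against 2.9% of all genes lower and 2.57% higher, with a nuclear median of -0.42 (all genes, -0.02). For GRD+L/D+L, 7 were lower and 0 higher (edgeR), against 2.97% and 1.92%, with a median of -0.34 (all genes, -0.03). All 15 and all 7 had also been lower in vehicle. In GRD/D 0 were called by edgeR, against 0.305% of all genes, 2 nuclear genes had an unadjusted p under 0.05 (all genes, 11.1%), DESeq2 called 1 higher (all genes, 0.711%), and the median was -0.02. For the 7 mitochondrial genes the medians were 0.05 in GRD/D, -0.22 in GRL/L as well as -0.07 in GRD+L/D+L, with 0 called. Their sign depended on the GRwt/wt Dex libraries. In the same order they were -0.17, -0.42 and -0.28 without GRwt/wt Dex 1, and 0.39, 0.09 and 0.22 without GRwt/wt Dex 3.

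Most of the nuclear genes lay below GRwt/wt under Dex even where they were not called. A negative log2 fold change was found for 94.4% of the 89 in GRL/L as well as 95.5% in GRD+L/D+L, as against 51.5% and 52.3% of all genes, and for 55.1% in GRD/D (all genes, 50.6%). With the correction for GC content and length the shares under Dex were 91.0% in GRL/L and 71.9% for GRD+L/D+L, and the nuclear medians -0.26 and -0.0756. In vehicle, uncorrected, the shares were 94.4% in GRL/L, 96.6% for GRD+L/D+L and 88.8% in GRD/D. Counted without a test, 71 nuclear genes in GRL/L as well as 58 in GRD+L/D+L had every Dex library below every GRwt/wt Dex library, against 20.4% and 14.7% of all genes.

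The genes called under Dex belong to complexes I, III, IV and V. Cox7a2 had the smallest adjusted p in GRL/L Dex, at 54.0, 49.95 and 47.7 CPM against 93.8, 71.7 and 83.7 CPM in GRwt/wt Dex, with -0.72 ± 0.13 (edgeR adjusted p = 0.0051). The groups did not overlap. It was followed by Ndufs4, an accessory subunit of complex I, at -0.69 ± 0.13 (edgeR adjusted p = 0.00714) and by Cox7c, a small complex IV subunit, at -0.57 ± 0.12 (edgeR adjusted p = 0.00943). The other 12 in GRL/L were Ndufb3, Ndufv2, Atp5j, Atp5mpl, Ndufa1, Uqcrc2, Ndufc2, Ndufa9, Ndufb9, Ndufs6, Uqcrfs1 and Ndufb10, with log2 fold changes from -0.62 (Ndufb9) to -0.42 (Atp5j). With the correction, 2 of the 15 were still called, Cox7a2 at -0.46 (edgeR adjusted p = 0.00864) and Ndufb9 at -0.35 (edgeR adjusted p = 0.0488). Ndufs4 and Cox7c, at -0.64 and -0.70 (edgeR adjusted p = 0.169 and 0.407), were not called.

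In GRD+L/D+L Dex, Cox7c was at 51.7, 60.9 and 52.8 CPM against 84.8, 83.1 and 67.0 CPM in GRwt/wt Dex, with -0.51 ± 0.12 (edgeR adjusted p = 0.0217). Ndufs6 was at 22.5, 25.9 and 26.7 CPM against 41.1, 37.4 and 39.1 CPM, with -0.65 ± 0.15 (edgeR adjusted p = 0.0258). No mutant library reached the lowest GRwt/wt library for either gene. Atp5mpl, Ndufb3, Cox5a, Ndufb5 and Ndufs4 were the other 5, with log2 fold changes from -0.62 (Cox5a) to -0.42 (Ndufb5). With the correction all 7 calls ended, Cox7c being at -0.57 and Ndufs6 at -0.37 (edgeR adjusted p = 0.512 and 0.0814). Leaving out 1 library at a time moved the count between 3 and 24 in GRL/L and between 0 and 11 in GRD+L/D+L, the highest in both without GRwt/wt Dex 2. Leaving out any of the other 5 libraries took it to 3 to 6 in GRL/L (3 without GRL/L Dex 3) and 0 to 3 in GRD+L/D+L (0 without GRD+L/D+L Dex 3 or GRwt/wt Dex 1). In the fit of all libraries 2.9% and 2.97% of all genes were lower, and 3 of 96 genes is near that share. The shares of all genes with 1 library left out are not given here.

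Dex against vehicle asks whether the activated receptor changes these genes within a genotype. edgeR called 0 subunit genes in all 4 genotypes, against 0.222% of all genes in GRwt/wt and 0% in GRD/D and the L mutants. In GRwt/wt the nuclear median was -0.32 (all genes, -0.01), 39 nuclear genes had an unadjusted p under 0.05 (all genes, 15.6%), the smallest adjusted p was 0.144, and DESeq2 called 3 lower, where 2.13% of all genes were lower. The mitochondrial median was 0.16, and with 1 library left out it ran from -0.20 (without GRwt/wt Dex 3) to 0.54 (without GRwt/wt vehicle 2). In GRD/D and the L mutants the nuclear medians were 0.07, 0.02 and 0.00, with 0 unadjusted p under 0.05 and 0 called by DESeq2. Cox7a2, for example, was at 79.5 and 73.9 CPM in GRD/D vehicle and 79.4, 78.1 and 80.3 CPM in GRD/D Dex.

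The GRwt/wt value rests on the vehicle libraries. Without GRwt/wt vehicle 3, edgeR called 19 subunit genes lower for Dex against vehicle, where 1.1% of all genes were lower. Without GRwt/wt vehicle 2 it called 1 lower for Dex, where 2.51% of all genes were lower. Without GRwt/wt vehicle 1 the nuclear median for Dex was -0.12 and 0 were called. The difference of the Dex response from GRwt/wt was called for 0 subunit genes in GRD/D and the L mutants (edgeR), against 0%, 0.0254% and 0.0254% of all genes. The nuclear medians of that difference were 0.42, 0.34 and 0.32, with 17, 12 and 8 subunit genes at an unadjusted p under 0.05 (all genes, 7.11%, 6.29% and 5.05%) and 0 called by DESeq2. Without GRwt/wt vehicle 1 those medians were 0.19, 0.15 and 0.12.

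Subunit transcripts are short, which bears on these comparisons because length and GC content moved with the fold changes over all genes. The 89 nuclear genes had a median exonic length of 1675 bases (419 to 8086), against 4168 over all genes tested, and a median GC content of 50.2% against 49.5%. The 7 mitochondrial genes had a median GC content of 37.1% and a median length of 1144 bases. For GRL/L against GRwt/wt in vehicle the rank correlation of log2 fold change with GC content was -0.41 over 15723 nuclear genes and -0.52 over the 89 subunit genes, and with exonic length 0.41 and 0.44. For GRD+L/D+L these were -0.36 and -0.45 for GC content and 0.38 and 0.49 for length. These are descriptions across genes measured in the same libraries.

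Within the shortest quintile of all genes (up to 2191 bases), which holds 62 of the 89 nuclear subunit genes, the median log2 fold change in GRL/L was -0.50 over all genes and -0.81 over the subunit genes. In that quintile 27.6% of all genes and 53 of the 62 subunit genes were lower by the edgeR test. For GRD+L/D+L the medians were -0.44 and -0.69, with 25.4% of all genes and 51 of the 62 lower. Over the following quintiles the subunit medians in GRL/L were -0.68 (13 genes), -0.59 (9), -0.36 (4) and 0.26 (Ndufs1 alone), against -0.31, -0.10, 0.12 and 0.51 over all genes. By GC content, the subunit medians in GRL/L went from -0.39 in the lowest quintile (11 genes) to -0.94 in the highest (17 genes), against 0.51 and -0.37 over all genes.

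**Figure D5:**
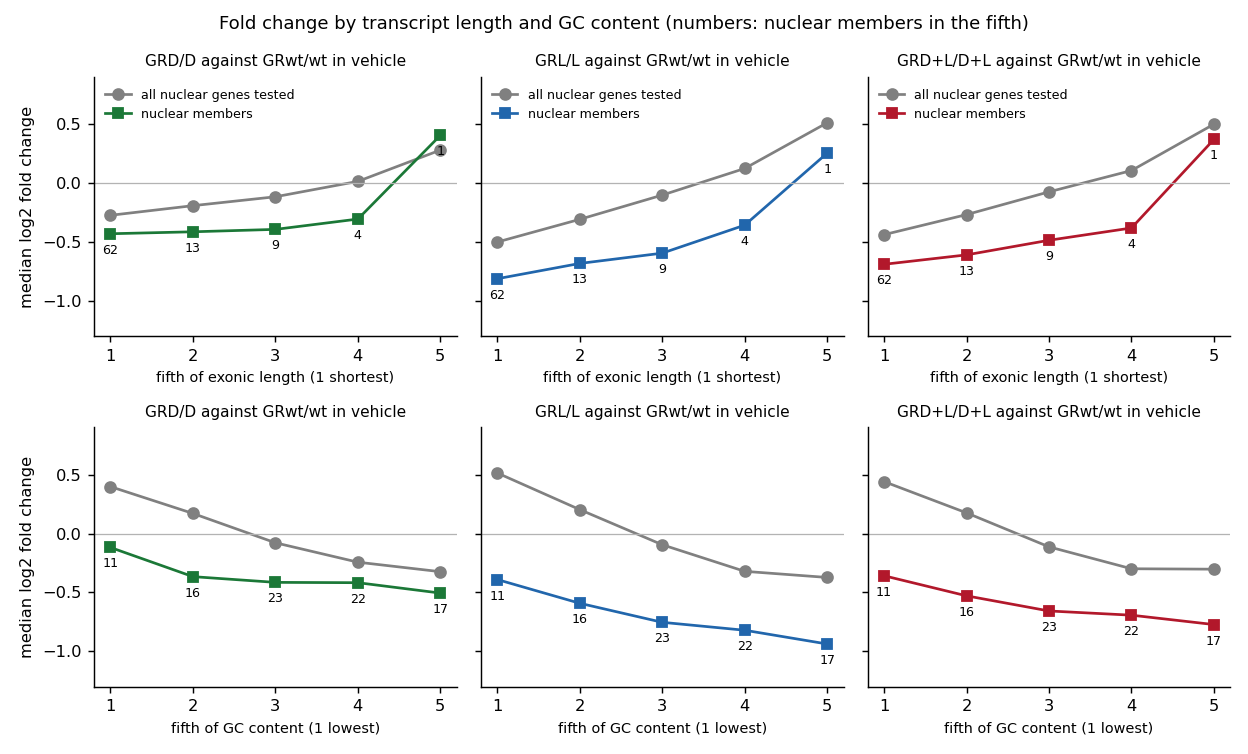
Median log2 fold change against GRwt/wt in vehicle by quintile of exonic length (top) and of GC content (bottom), for all nuclear genes tested (grey circles) and the nuclear subunit genes (coloured squares, with the number of genes in the quintile). For both L mutants the subunit genes lie below all genes in each quintile. In the longest quintile, with 1 subunit gene, GRD/D has the subunit value above.

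A fit with a smooth correction of each library for GC content and length brought the count in GRL/L vehicle from 73 to 51 lower nuclear genes, where 12.8% of all genes were lower (edgeR), with a median of -0.44. In GRD+L/D+L vehicle it brought the count from 68 to 26, where 10% of all genes were lower, with a median of -0.26. In each of these comparisons 1 nuclear gene, the complex I assembly factor Ndufaf1, was called higher, at 0.53 and 0.52 (edgeR adjusted p = 0.0221 and 0.0296). With the same correction and without GRwt/wt vehicle 1, an alternative chosen after seeing the data, 28 subunit genes were lower in GRL/L, where 7.74% of all genes were lower (edgeR), with a nuclear median of -0.30. For GRD+L/D+L 8 of the 96 were then lower, where 7.15% of all genes were, a share near that background, with a nuclear median of -0.12. With all libraries in the fit, Cox7a2 went from -1.0 to -0.42 in GRL/L (edgeR adjusted p = 0.00687) and from -0.83 to -0.21 in GRD+L/D+L, where it was no longer called (edgeR adjusted p = 0.119). The correction ended the call of 7 of the 23 genes named by rule in GRL/L vehicle, and in GRD+L/D+L vehicle it ended 14 of 23 and turned the direction of 1 more, Sdhd. Uqcrq remained called in both, at -0.60 and -0.50 (edgeR adjusted p = 0.00375 and 0.012). Ndufa4l2 remained at -3.15 and -3.13 (edgeR adjusted p = 0.015 and 0.0187). Under Dex the same fit called 4 lower nuclear genes in GRL/L, among them Uqcr11 and Cox6a1, which were not called there without it, where 3.14% of all genes were lower, and 0 in GRD+L/D+L, where 2.79% were.

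The promoters of the nuclear genes were searched, on both strands, for sites of factors known for this gene set. A promoter was taken as 250 bases before to 50 bases after the start of transcription (RefSeq, GRCm38.p6), and 75 of the 94 nuclear genes matched an entry, under 74 gene names. The NRF1 letters GCGCANGCG were in the promoters of 22 of the 74 (29.7%), against 7.03% of all 27025 genes in the table. The ETS letters CCGGAAG were in 18 (24.3%; all genes, 9.93%) and the YY1 letters AANATGGCG in 11 (14.9%; all genes, 2.76%). At least 1 of the 3 was in 42 (56.8%; all genes, 17.2%). The hypoxia response letters ACGTG were in 17 (22.97%; all genes, 21.8%), and the palindrome of the glucocorticoid response element, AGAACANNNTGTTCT, was in 0 (all genes, 0.01%). A match to letters is not a bound site, and no match says only that these letters are not in the window. The motifs can overlap each other.

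The promoters below are of 1 gene from each complex that was lower in both mutants in vehicle, plus Cox7a2, which has none of the 3 motifs. They show how the letters are placed near the start, and are written 5′ to 3′ on the strand of the gene with matches to the NRF1, ETS and YY1 letters in capitals and the hypoxia response letters of Uqcr11 left in lower case. They are chr13:73328433-73328732 (minus strand) for Ndufs6, chr4:140961021-140961320 (plus) for Sdhb, chr10:80406772-80407071 (minus) for Uqcr11, chr5:115348909-115349208 (minus) for Cox6a1, chr5:108434350-108434649 (minus) for Atp5k and chr9:79759804-79760103 (minus) for Cox7a2.
Ndufs6: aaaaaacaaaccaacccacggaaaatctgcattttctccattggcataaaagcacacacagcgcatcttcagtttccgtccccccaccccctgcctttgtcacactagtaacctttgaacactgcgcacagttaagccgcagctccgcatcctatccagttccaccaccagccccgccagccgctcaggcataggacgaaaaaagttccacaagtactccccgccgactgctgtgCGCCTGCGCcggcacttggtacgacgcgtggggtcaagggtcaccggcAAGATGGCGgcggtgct
Sdhb: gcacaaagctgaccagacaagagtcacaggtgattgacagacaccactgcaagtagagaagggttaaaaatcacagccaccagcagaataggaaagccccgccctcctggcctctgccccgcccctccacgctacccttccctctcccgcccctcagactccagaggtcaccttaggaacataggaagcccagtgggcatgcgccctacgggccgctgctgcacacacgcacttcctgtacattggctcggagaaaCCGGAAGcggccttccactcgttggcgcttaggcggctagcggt
Uqcr11: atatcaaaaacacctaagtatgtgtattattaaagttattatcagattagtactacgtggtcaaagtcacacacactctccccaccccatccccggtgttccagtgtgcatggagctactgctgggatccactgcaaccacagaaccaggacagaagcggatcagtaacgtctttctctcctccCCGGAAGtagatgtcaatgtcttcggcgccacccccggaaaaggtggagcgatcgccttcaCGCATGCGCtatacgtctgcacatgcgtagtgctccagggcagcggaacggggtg
Cox6a1: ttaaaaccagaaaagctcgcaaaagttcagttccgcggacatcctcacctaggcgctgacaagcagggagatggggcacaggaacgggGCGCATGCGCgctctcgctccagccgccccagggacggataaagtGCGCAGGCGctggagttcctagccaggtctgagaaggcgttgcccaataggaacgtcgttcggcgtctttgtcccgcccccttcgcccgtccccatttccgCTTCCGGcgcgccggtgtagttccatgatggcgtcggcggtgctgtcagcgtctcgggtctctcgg
Atp5k: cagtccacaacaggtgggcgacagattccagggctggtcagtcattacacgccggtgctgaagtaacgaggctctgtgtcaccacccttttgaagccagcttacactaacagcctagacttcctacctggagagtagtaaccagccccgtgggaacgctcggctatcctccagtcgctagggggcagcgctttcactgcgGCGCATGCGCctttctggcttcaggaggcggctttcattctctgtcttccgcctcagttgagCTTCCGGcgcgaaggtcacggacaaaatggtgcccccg
Cox7a2: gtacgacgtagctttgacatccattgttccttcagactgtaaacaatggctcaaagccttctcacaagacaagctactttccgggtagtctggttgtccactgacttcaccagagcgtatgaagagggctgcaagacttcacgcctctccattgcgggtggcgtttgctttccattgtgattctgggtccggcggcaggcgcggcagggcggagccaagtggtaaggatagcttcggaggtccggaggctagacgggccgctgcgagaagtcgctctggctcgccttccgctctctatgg
The capitals mark NRF1 and YY1 letters in Ndufs6, ETS letters in Sdhb, and NRF1 and ETS letters in Uqcr11, Cox6a1 and Atp5k. Cox7a2, with no capitals, had the smallest adjusted p of the set in GRL/L, so the genes that were lower include promoters with and without these letters.

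Other genes of the pathway were examined as lists, in the fit of all libraries without the correction for GC content and length. Their values with that correction or without GRwt/wt vehicle 1 are not given here. Over all genes tested, 14.2% were lower and 8.83% higher in GRL/L vehicle, and 13.3% and 7.14% in GRD+L/D+L vehicle, beside which the counts of each list stand. Of 36 tested assembly factors outside the name rule, 16 were lower and 1 higher in GRL/L vehicle, and 10 lower and 1 higher in GRD+L/D+L vehicle (edgeR, median log2 fold changes -0.41 and -0.36). Uqcc2, needed to assemble complex III, changed by -0.86 ± 0.15 in GRL/L (edgeR adjusted p = 0.00118), and the gene that was higher in both was Cox17, a copper chaperone of complex IV, at 1.08 ± 0.26 and 0.96 ± 0.26 (edgeR adjusted p = 0.00724 and 0.0175). Of 16 electron carriers and ubiquinone synthesis genes, 8 and 6 were lower and 0 higher (medians -0.52 and -0.37), including Cyc1, the cytochrome c1 of complex III, at -0.76 ± 0.14 and -0.48 ± 0.14 (edgeR adjusted p = 0.0016 and 0.027). Of 16 citric acid cycle genes, 8 and 3 were lower and 0 higher (medians -0.39 and -0.15), the 3 in GRD+L/D+L being near the 13.3% of all genes. The most changed was Mdh2, malate dehydrogenase, at -0.99 ± 0.17 and -0.76 ± 0.17 (edgeR adjusted p = 0.000921 and 0.00555).

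Of 19 regulators of mitochondrial DNA expression and biogenesis, such as Tfam and Nrf1, 0 were called by edgeR in GRL/L vehicle, and 1 was lower in GRD+L/D+L vehicle. That gene was Slirp, which stabilises mitochondrial mRNA, at -0.54 ± 0.17 (edgeR adjusted p = 0.0359), and the medians of the list were 0.19 and 0.14. Of 15 hypoxia-responsive genes, 8 and 7 were lower and 0 higher (edgeR, medians -0.77 and -0.59). Among them Ldha, lactate dehydrogenase, changed by -1.71 ± 0.18 and -1.22 ± 0.18 (edgeR adjusted p = 5.88e-05 and 0.00057). Under Dex, 6 and 4 of these 15 were lower, against 2.9% and 2.97% of all genes, and 1, Vegfa, was higher in GRL/L at 0.71 ± 0.19 (edgeR adjusted p = 0.0343), against 2.57% of all genes higher. Under Dex the assembly factors had 1 higher in GRL/L and 2 lower in GRD+L/D+L, the citric acid cycle genes 1 lower and 0, the electron carriers 0 and 0, and the regulators 0 and 1 higher (Ppargc1b, a coactivator of mitochondrial biogenesis, at 1.41 ± 0.37, edgeR adjusted p = 0.0376). In GRD/D, 0 of the genes on these 5 lists were called in vehicle or under Dex.

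Markers of other cell types were present at levels that differed between libraries. Beside the L mutant results, the 12 macrophage markers summed to 323 to 802 CPM in GRL/L and 8.16 to 86.2 CPM in GRD+L/D+L. By edgeR against GRwt/wt in vehicle, 1 of the 12 was lower in GRL/L (median log2 fold change -1.55) and 10 in GRD+L/D+L (median -5.20), and under Dex 0 were called in either (medians 3.83 and 0.06). In each L mutant in vehicle, 1 of 6 tested skeletal muscle markers, 1 of 2 cardiac, 1 of 4 endothelial, 1 of 5 neuronal and 1 of the 12 fibroblast markers were also lower. The 12 skeletal muscle markers were at 13.9 to 28.2 CPM in both, with Myod1 and Ckm at 0 in all 4 groups. The 6 cardiac muscle markers summed to at most 11.2 CPM in all 23 libraries, the 6 endothelial to at most 23.5 CPM, the 6 epithelial to at most 5.79 CPM, and the 6 neuronal between 35.8 and 252 CPM. The 6 brown adipocyte markers summed to at most 28.2 CPM, with Ucp1 at 0 in 7 of the 8 groups. The part of these levels in the results was not tested.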

How the data were processed

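Gene counts of 23 MEF libraries were used as deposited, as raw counts per Ensembl identifier. The authors aligned the reads to mm10 with HISAT2 2.1.0, kept uniquely mapped reads and counted them with featureCounts 2.0.0, with FastQC for quality and DESeq2 for their tests. The annotation release, read length and strand setting are not given in the sources used here. Groups came from the labels, and all 23 columns matched a label. Symbols, exonic length (union of exons), GC content, 50-base words and coordinates were taken from GENCODE M21 (GRCm38), and promoters from RefSeq (GRCm38.p6).

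All 8 groups were fitted together with edgeR 4.0.16 in R 4.3.3 (TMM factors, filterByExpr, quasi-likelihood test, prior count 0.125), and 15748 genes were tested. Calls were made at p values up to 0.05 after Benjamini-Hochberg adjustment over all of these, and those with an absolute log2 fold change of 1 or more were counted beside. The code was tested on simulated counts. SEs are the log2 fold change divided by the root of the F statistic. CPM are TMM-scaled, and shares are of raw totals. Totals ran from 16452539 to 23117080 counts per library, and 78 of the 89 tested nuclear members were above 10 CPM, where counting error is small. No replicate pair agreed within sampling noise (mean chi-square per gene 8.73 or more).

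The members and lists were chosen with earlier results of these data known. The genes named were all 13 mitochondrial genes, the most abundant and most changed nuclear gene of each complex, the pairs of tissue forms, every member called with a factor of 2 or more, and every member called for Dex against vehicle, of which there were 0. Ndufs1, Ndufaf1, Sdha, Uqcrfs1, Atp5l, the members called in the mutants under Dex and the list genes were also named after their values were seen. Alternatives were RLE scaling, TMM without mitochondrial genes, other filters, DESeq2 1.42.0, a fit of the compared groups only, a replicate block, a smooth correction for GC content and length (natural splines with 4 degrees of freedom), and leaving out libraries. The block within genotype, and the correction without GRwt/wt vehicle 1, were added after seeing the data.

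Deviations of vehicle and Dex libraries with the same replicate number correlated at 0.21, 0.51 and 0.49 in GRL/L and 0.80, 0.68 and 0.46 in GRD+L/D+L, but at 0.49, -0.02 and -0.08 in GRwt/wt and 0.20 and -0.13 in GRD/D. With a correlation over 0.1 required of every pair, the numbers pair libraries in GRD+L/D+L and GRL/L only.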

Additional observations from a re-analysis of the deposited data

How the results depend on the processing

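Of the counts, medians, shares and correlations recomputed under the alternatives, 584 stayed within their limits and 54 moved. For the genes named by rule 655 kept their call, 164 lost it and 4 turned direction. The subunit genes called in vehicle (GRL/L 74, GRD+L/D+L 68) were 0 and 0 when only the libraries compared were fitted, and 11 and 4 with a factor of 2 required. With the correction for GC content and length 27 were called in GRD+L/D+L, and with that correction and without GRwt/wt vehicle 1, 29 and 9. Leaving out 1 library gave 66 to 78 and 50 to 72. For GRD/D in vehicle the count was 7 without GRwt/wt vehicle 1 and 3, and 0 to 45 over the libraries left out.

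Under Dex the GRL/L count of 15 became 23 (RLE), 3 (no filter), 25 (10 counts in every library), 45 (DESeq2, all genes lower 7.03%), 31 (only the libraries compared), 4 (correction), 0 (factor of 2) and 3 to 24 (1 library left out). The GRD+L/D+L count of 7 became 12 (TMM without mitochondrial genes), 0 (no filter), 12 (10 counts), 17 (DESeq2, all genes lower 5.96%), 0 (only the libraries compared), 0 (correction), 0 (factor of 2) and 0 to 11 (1 library left out). DESeq2 called 1 for GRD/D under Dex and 3 for Dex in GRwt/wt, where leaving out 1 library gave 0 to 19. The causes of these moves were not tested. Counts in this section without a share of all genes beside them cannot be set against that background.

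The nuclear medians in vehicle were -0.26 in GRD+L/D+L with the correction, and -0.30 (GRL/L) and -0.12 (GRD+L/D+L) with it and without GRwt/wt vehicle 1. Under Dex the GRD+L/D+L median was -0.0756 with the correction. The mitochondrial medians in vehicle were -0.57 (GRD/D), -0.66 (GRL/L) and -0.49 (GRD+L/D+L) with the correction, and -0.04, -0.01 and 0.17 with it and without GRwt/wt vehicle 1. For Dex in GRD+L/D+L the nuclear median ran from -0.0029 to 0.0304 over the libraries left out. The correlation of log2 fold change with GC content over the nuclear genes became 0.47 (GRL/L) and 0.52 (GRD+L/D+L) with the correction and -0.092 and -0.0799 also without GRwt/wt vehicle 1, and that with length became -0.18 and -0.14, then -0.0755 and 0.059. That correction is fitted over all genes and left a GC trend of the other sign in the subunit genes while GRwt/wt vehicle 1 was in the fit. The GC value of GRD+L/D+L ran from -0.53 to -0.11 over the libraries left out. In GRD+L/D+L vehicle Sdhd turned to 0.0155 with the correction, and to 0.0851 without GRwt/wt vehicle 1 as well, where Atp5a1 turned to 0.0159 and Cox7a2l to 0.15.

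With the replicate block the counts were 75 and 68 in vehicle and 16 and 6 under Dex for GRL/L and GRD+L/D+L, and the block changed no count by over 1.5 times. It joins the same replicate number across genotypes, which are different embryos. These counts therefore do not show how pairing by culture bears on the calls. With the block within genotype 0 subunit genes were called for Dex by edgeR in any genotype. In GRwt/wt and GRD/D that block uses numbers that do not pair the libraries. There, replicates 2 and 3 of GRwt/wt correlated best with a library of another number (0.46 and 0.39), as did replicate 2 of GRD/D (0.32), which is a hint from the data only. Depth limits little for the abundant members, whereas Cox4i2, Cox6a2, Cox7a1 and Ndufa4l2 rest on few counts.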
